A study of Mus musculus with 38 samples.

Results

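The 9 genes described here carry retinol, turn it into retinoic acid and read the retinoic acid signal: Rbp4, Stra6, Rdh10, Aldh1a1, Aldh1a2, Aldh1a3, Crabp1, Crabp2 and Rarb. They were chosen by symbol, as 9 of the 25746 genes in both expression tables, and each was found once. Their RNA was followed in Tcf21 lineage cells of mouse adipose tissue, in cells labelled as Tcf21 knockouts (KO) and in WT cells. Tcf21 is a transcription factor that marks progenitor cells of visceral fat. Mice aged 3 weeks on regular diet gave the KO 3W libraries (n = 5). High-fat feeding from the age of 6 weeks gave KO 1W HFD (1 week of it, n = 2) and KO 12W HFD (12 weeks, n = 2). WT libraries came from postnatal day 12 (WT P12, n = 2), 3 weeks (WT 3W, n = 7) and 6 months (WT 6M, n = 2) on regular diet, and from the same 2 diet times (WT 1W HFD, n = 4; WT 12W HFD, n = 5). ATAC-seq, which marks open chromatin, covered KO 3W (n = 2), WT 3W (n = 3), WT 1W HFD (n = 2) and WT 12W HFD (n = 2). Each library held 5000 cells sorted by flow cytometry. The labels of all groups, WT included, list tamoxifen for inducing MerCreMer, a Cre recombinase switched on by that drug, at 75 mg/kg a day for adults or 100 µg a day for neonates. The sources used here do not give the promoter that drives it, the deleted part of Tcf21, or whether animals were pooled. KO cells at P12 or 6M were not analysed here, and the HFD groups differ from 3W in age as well as diet, which cannot be told apart.

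Retinol travels in blood bound to RBP4 and enters some cells through STRA6. RDH10 oxidises retinol to retinaldehyde, and the ALDH1A enzymes oxidise retinaldehyde to retinoic acid. CRABP1 and CRABP2 bind retinoic acid in the cytoplasm, and RARB is a nuclear receptor for it whose own gene is a classic target of the signal. In adipose tissue, RBP4 is known as a secreted adipokine, and retinoic acid is known to restrain the differentiation of preadipocytes.

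Promoters of 6 of the 9 genes were found in the RefSeq table (build GRCm38.p6, which shares its coordinates with mm10), from 250 bases before to 50 after an annotated start. The 3 below belong to the member with the largest fall between groups (Rbp4), the member with the largest rise (Aldh1a2) and the receptor whose promoter holds a retinoic acid response element (Rarb). Rbp4 has 2 annotated starts, and the sequence of the start inside the gene is shown.
Rbp4 (chr19:38124762-38125061, minus strand): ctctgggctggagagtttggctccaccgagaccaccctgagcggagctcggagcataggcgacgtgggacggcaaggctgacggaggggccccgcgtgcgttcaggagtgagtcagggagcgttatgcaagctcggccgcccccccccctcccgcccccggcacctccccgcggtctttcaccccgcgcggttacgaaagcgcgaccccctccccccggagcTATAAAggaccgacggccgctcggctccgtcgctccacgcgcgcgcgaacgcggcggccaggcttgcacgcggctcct
Aldh1a2 (chr9:71215539-71215838, plus strand): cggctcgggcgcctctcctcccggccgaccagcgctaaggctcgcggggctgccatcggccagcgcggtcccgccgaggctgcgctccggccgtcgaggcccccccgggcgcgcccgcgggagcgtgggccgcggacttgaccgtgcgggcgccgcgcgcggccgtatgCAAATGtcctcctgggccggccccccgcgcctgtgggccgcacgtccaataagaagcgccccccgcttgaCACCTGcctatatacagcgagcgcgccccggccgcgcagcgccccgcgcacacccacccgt
Rarb (chr14:16575427-16575726, minus strand): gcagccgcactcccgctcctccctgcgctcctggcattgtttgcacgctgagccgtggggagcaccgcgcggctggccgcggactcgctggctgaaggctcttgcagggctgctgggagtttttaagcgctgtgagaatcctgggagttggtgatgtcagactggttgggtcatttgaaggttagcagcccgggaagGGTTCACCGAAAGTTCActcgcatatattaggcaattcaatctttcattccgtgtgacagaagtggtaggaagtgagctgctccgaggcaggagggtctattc
Capitals mark TATAAA in Rbp4, CANNTG in Aldh1a2 and a direct repeat in Rarb. TATAAA, the core of a TATA box, lay at -28 to -23 from the Rbp4 start and was in 13.6% of all 32851 promoters on either strand. CANNTG, the E-box read by basic helix-loop-helix factors such as TCF21, lay at -81 to -76 (CAAATG) and -11 to -6 (CACCTG) in Aldh1a2 and was in 72.3% of promoters. In Rarb, 2 hexamers of the nuclear receptor kind in the same orientation and 5 bases apart read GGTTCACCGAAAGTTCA at -53 to -37. Hexamers searched were AGGTCA and its variants AGTTCA and GGGTCA and also GGTTCA. Such a repeat was in 0.0974% of promoters on either strand, and the hexamer alone was in 43.7%. In the other printed sequences the repeat was not found.

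Expression is given in TPM, a transcript level per length scaled within a library. Column sums lay between 918008 and 969385 TPM, and 10894 to 12825 genes reached 1 TPM in a library. Tcf21 itself had 20.0, 60.9, 21.9, 48.2 and 25.1 TPM in KO 3W libraries, against a lowest of 37.6, a median of 47.6 and a highest of 109 TPM in WT 3W libraries. It was therefore lower on the whole but present in the libraries labelled KO, and the groups overlapped. After 1 week of diet it had 8.10 and 16.4 TPM in KO cells and 11.3 to 47.4 TPM in WT cells. After 12 weeks it had 5.67 and 1.64 TPM in KO cells and 5.86 to 13.5 TPM in WT cells. WT cells had 42.3 and 48.1 TPM of it at P12 and 2.24 and 5.54 TPM at 6M. Fibroblast and progenitor markers were high in every group (means of 9.08 to 10.02 log2(TPM + 1) over the list), with Pdgfra at 63.9 to 188 TPM. Alb, which marks liver cells, was at or below 0.18 TPM. In bulk RNA, fewer cells of a type and less RNA per cell cannot be told apart.

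All 9 genes passed the filter of at least 1 TPM in at least 2 libraries, Stra6 with only 2 libraries above it. Rbp4, Aldh1a1 and Aldh1a3 had the highest medians, though Rbp4 was at 10.7 TPM in its lowest library. On the TPM scale their medians over the 29 libraries were 219, 266 and 85. Rdh10, Aldh1a2 and Rarb had medians of 10.2, 6.42 and 4.17 TPM. Crabp2, Crabp1 and Stra6 were low, with a median of 1.02 TPM for Crabp2 and of 0 for both others.

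**Figure D1:**
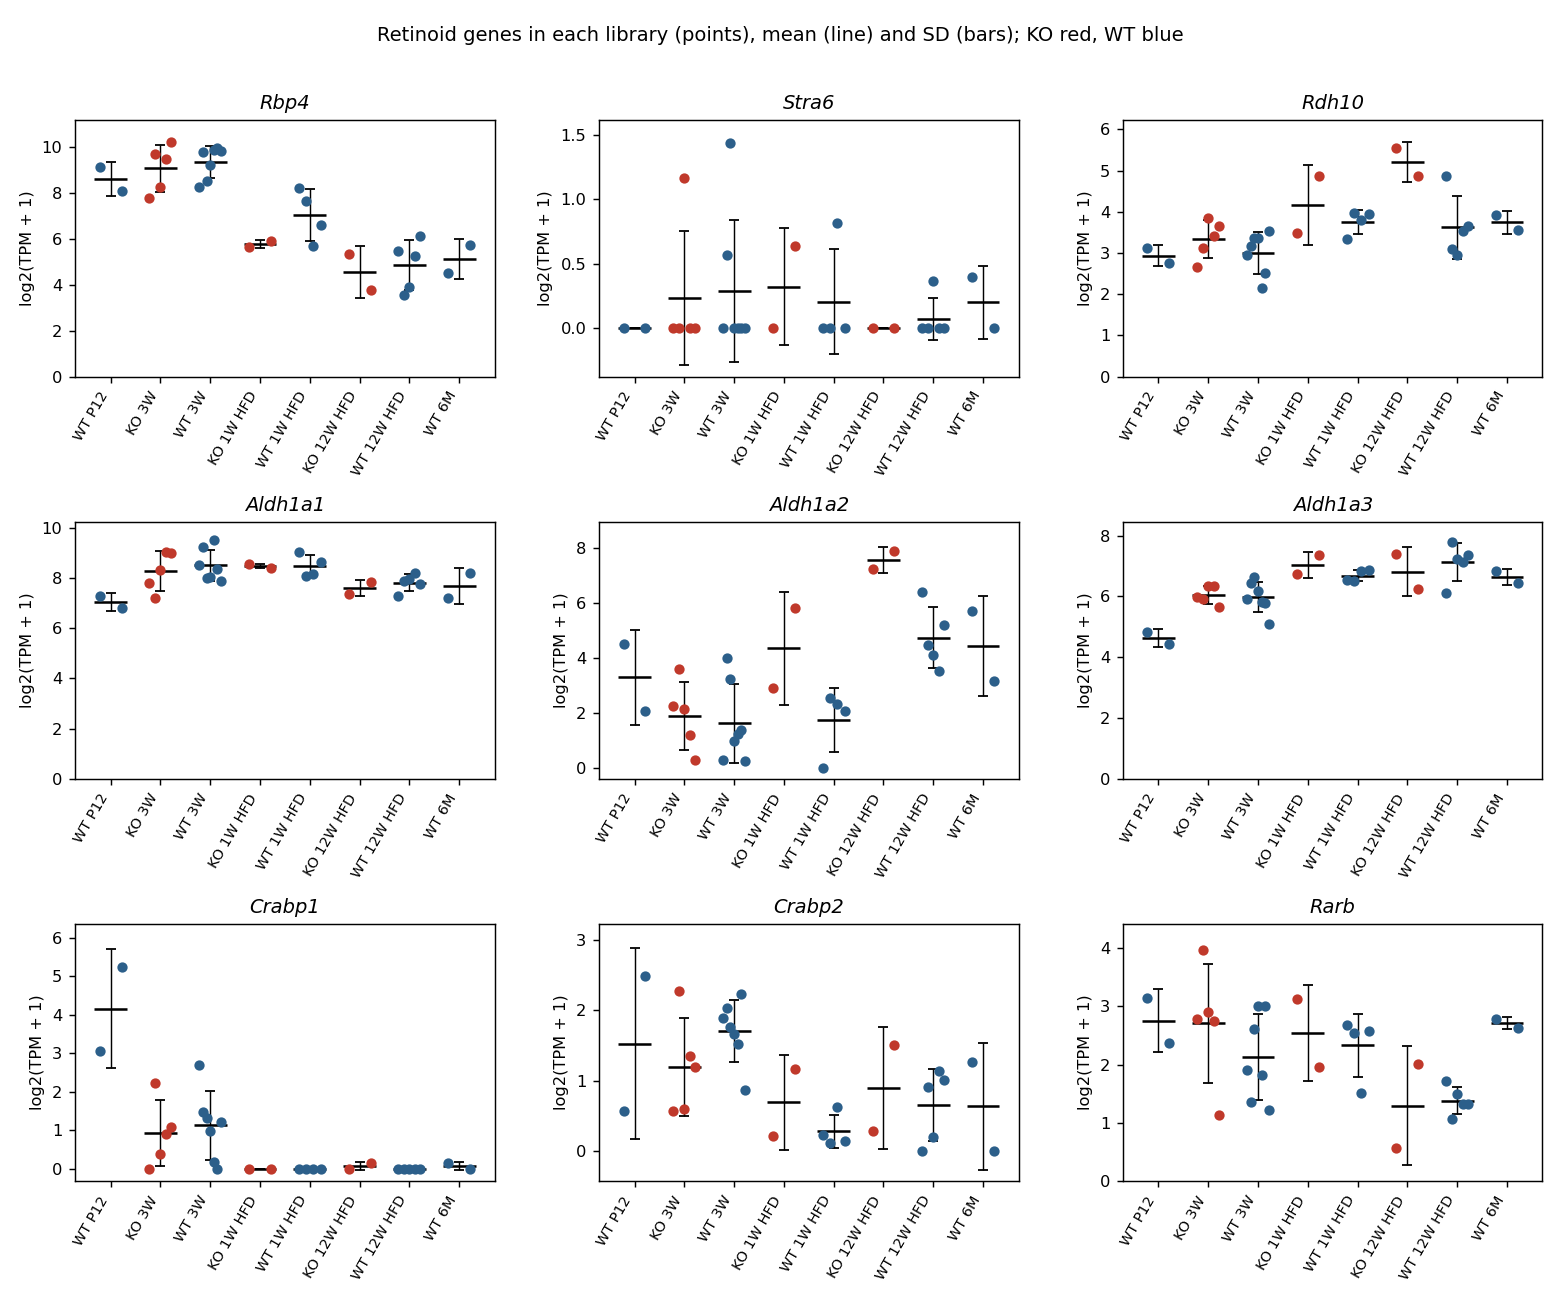
Log2(TPM + 1) of the 9 genes in each library (points; KO red, WT blue), with the mean (line) and SD (bars) of each group on the horizontal axis. Rbp4 libraries of both genotypes lie lower on the diet than at 3W, and both KO 12W HFD libraries (150 and 239 TPM) are the highest for Aldh1a2.

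The comparisons were tested with limma on log2(TPM + 1), with Benjamini-Hochberg adjustment over 15659 genes. Between KO and WT, 0 of the 9 genes passed at any of the 3 stages. Of all genes, 0% passed at 3W, 0.0255% after 1 week of diet and 0.00639% after 12 weeks. At an unadjusted p under 0.05 there were 0 of the 9 genes at 3W, 1 after 1 week (Aldh1a2) and 2 after 12 weeks (Rdh10 and Aldh1a2). Of all 15659 genes, 546, 540 and 570 had such a p at these stages. Groups of KO and WT libraries that did not overlap were found for 0 of the 9 genes at 3W, where 0.0766% of all genes had such groups (0.0575% higher and 0.0192% lower in KO). Within WT cells, 2 genes passed for 3W against P12, 1 in each direction, against 1.63% of all genes (0.626% higher and 1% lower). For 1W HFD against 3W 2 passed, 0 higher and 2 lower, against 8.03% of all genes (4.78% higher and 3.25% lower). For 12W HFD against 3W 4 passed, 2 higher and 2 lower, against 14.2% (7.94% higher and 6.23% lower). For 12W HFD against 1W HFD 2 passed, 1 in each direction, against 5.93% (3.54% higher and 2.39% lower). At 6M against 3W 1 passed, lower, against 10.8% (4% higher and 6.85% lower). There the balance over all genes turned with the scaling, from 626 higher and 1073 lower as fitted to 1001 and 563 with median-ratio scaling and 766 and 590 with quantile normalization. Median-ratio scaling also moved the balance for WT 12W HFD against WT 1W HFD (645 higher and 265 lower, 554 and 374 as fitted), WT 12W HFD against WT 6M (60 and 45, 110 and 28 as fitted) and KO 12W HFD against KO 1W HFD (98 and 30, 77 and 42 as fitted). For KO 12W HFD against WT 12W HFD it gave 5 higher and 1 lower, where the fit gave 1 and 0. For WT 12W HFD against WT 6M 0 passed (0.881% of all genes, with 0.702% higher and 0.179% lower). There 1 of the 9 had an unadjusted p under 0.05, as did 2189 of all 15659 genes. Within KO cells, 1 gene passed for 1W HFD against 3W, lower (0.862%; 0.428% higher and 0.434% lower). For 12W HFD against 3W 3 passed, 2 higher and 1 lower (5.15%; 3.19% higher and 1.96% lower). For KO 12W HFD against KO 1W HFD 0 passed (0.76%, with 0.492% higher and 0.268% lower). There 1 of the 9 had an unadjusted p under 0.05, as did 1245 of all 15659 genes. Comparisons with 3W as the baseline share its libraries within a genotype.

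**Figure D2:**
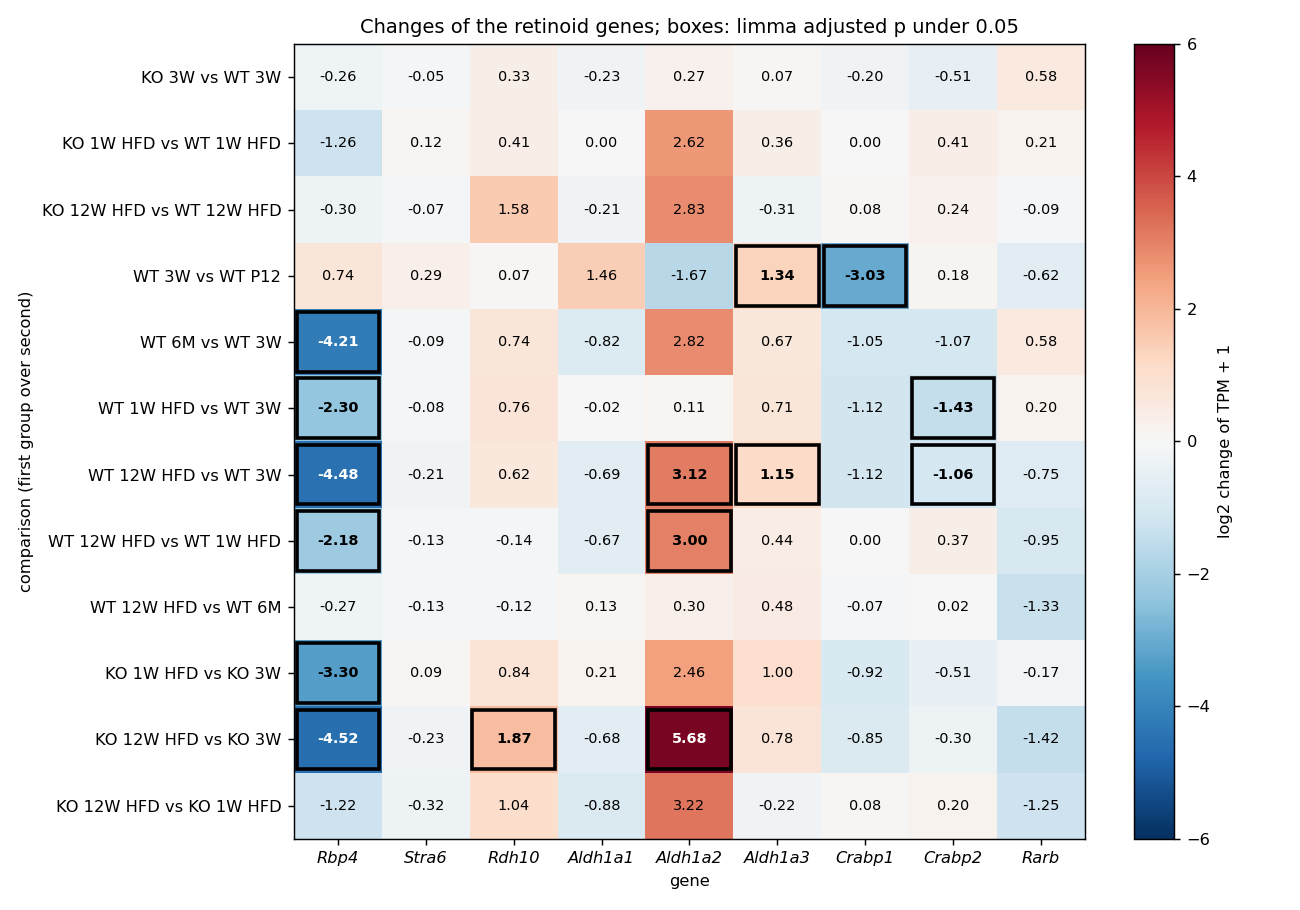
Log2 change of TPM + 1 of each gene (columns) in each comparison (rows, the named group over its reference), coloured from blue (lower) to red (higher). Boxes mark limma adjusted p under 0.05; none lies in the top 3 rows, KO against WT, and Rbp4 holds 6 of them.

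Rbp4, the plasma carrier of retinol (19:38116629-38125281 in the tables' mm10 coordinates), fell in both genotypes. KO libraries had 219, 834, 303, 708 and 1181 TPM at 3W, 49.5 and 58.7 TPM after 1 week of diet, and 39.8 and 12.6 TPM after 12 weeks. WT libraries had 554 and 268 TPM at P12 and 302, 868 and 981 TPM (lowest, median, highest) at 3W. They then had 296, 197, 50.5 and 97.05 TPM after 1 week of diet, 42.9, 10.7, 13.8, 37.2 and 69.0 TPM after 12 weeks, and 21.96 and 52.0 TPM at 6M. No library of the diet groups or of 6M reached the lowest 3W library of its own genotype in WT (302 TPM) or in KO (219 TPM). Groups lay lower than WT 3W without overlap for 2.31% of all genes after 1 week, 3.05% after 12 weeks and 11.9% at 6M. Against KO 3W the share was 5.77% after 1 week and 9.46% after 12 weeks of diet.

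The mean of Rbp4 after 12 weeks of diet was 34.7 ± 23.8 TPM in WT cells (SD, n = 5), against 707 ± 285 TPM at 3W (n = 7), or 4.91% of it. The log2 change was -4.48 ± 0.48 (SE; limma adjusted p = 5.75e-08). On regular diet at 6M it was 37.0 ± 21.2 TPM (SD, n = 2), 5.23% of the 3W mean, with a log2 change of -4.21 ± 0.66 (limma adjusted p = 9.9e-05). The median of all genes in that comparison was -0.241, or -0.0299 with median-ratio scaling. WT 12W HFD and WT 6M, 2 groups that differ in diet and age, were 0.27 ± 0.69 apart on the log2 scale (-0.27, limma adjusted p = 0.926) and overlapped. After 1 week of diet WT cells had 160 ± 109 TPM (n = 4), with a log2 change from 3W of -2.30 ± 0.52 (limma adjusted p = 0.00573).

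From 1 to 12 weeks of diet Rbp4 fell further in WT cells, by 2.18 ± 0.55 on the log2 scale (limma adjusted p = 0.0137). That call was lost without WT 12W HFD replicate 2 (adjusted p = 0.0542) or without WT 1W HFD replicate 1 (0.0854) or 2 (0.0599). In KO cells, the change from 3W was -3.30 ± 0.69 after 1 week of diet (limma adjusted p = 0.0158) and -4.52 ± 0.69 after 12 weeks (6.75e-05). The call after 1 week was lost without either of the 2 KO 1W HFD libraries (adjusted p = 0.17 without replicate 1 and 0.116 without replicate 2). Between genotypes, the Rbp4 difference was -0.26 ± 0.48 at 3W, -1.26 ± 0.71 after 1 week and -0.30 ± 0.69 after 12 weeks of diet, none past the threshold and all with overlapping groups (limma adjusted p = 1 at each stage). In the titles' pairs at 3W, KO was below its WT partner in 5 of 6 pairings, 2 of which share KO 3W replicate 3.

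Markers of other cells moved with Rbp4 too. Of 10 adipocyte markers, 5 fell and 2 rose in WT 12W HFD against WT 3W, where the list's mean level ranged over 2.48 to 3.84 and 2.01 to 5.13 log2(TPM + 1). Adipoq, an adipocyte hormone, had 0.07 TPM in WT 3W replicate 3, beside 366 TPM of Rbp4. The other WT 3W libraries had 19.6 to 136 TPM of Adipoq and 302 to 981 TPM of Rbp4. Of 8 pericyte and smooth muscle markers, 4 fell in that comparison, with list levels of 2.215 to 3.07 in WT 12W HFD and 2.595 to 5.80 in WT 3W. In KO 12W HFD against KO 3W, 1 adipocyte marker fell and 1 rose, and 0 pericyte markers passed (limma). In WT 6M against WT 3W, 4 pericyte markers and 1 adipocyte marker fell, and 13 of 15 macrophage markers rose. In WT 1W HFD against WT 3W, 3 pericyte markers and 1 adipocyte marker fell, and 11 macrophage markers rose. In KO 1W HFD against KO 3W, 0 pericyte and 0 adipocyte markers passed, and 4 macrophage markers rose. At 12 weeks of diet macrophage markers also went the other way from Rbp4 and are given with Aldh1a2. In WT 12W HFD against WT 3W, 8 of 9 tested lymphocyte markers rose. Of the 10 fibroblast and progenitor markers, 3 fell and 1 rose there. The part of these cells in the Rbp4 result was not tested.

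Stra6, the cell-surface receptor for retinol-bound RBP4 (9:58063788-58153996), was listed at 0 in 22 of 29 libraries. Values above 0 were 1.25 TPM in KO 3W, 0.56 TPM in KO 1W HFD, 0.48 and 1.71 TPM in WT 3W, 0.76 TPM in WT 1W HFD, 0.29 TPM in WT 12W HFD and 0.32 TPM in WT 6M, each for a single library. No comparison of Stra6 passed the threshold. TPM tables hold no read depth, so the lowest detectable level is unknown.

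Rdh10, which makes retinaldehyde from retinol (1:16105774-16133734), was highest in KO cells after 12 weeks of diet. KO libraries had 5.28, 7.64, 13.3, 9.71 and 11.5 TPM at 3W, 10.2 and 28.0 TPM after 1 week and 45.9 and 28.1 TPM after 12 weeks of diet. WT libraries had 7.62 and 5.75 TPM at P12, 3.45, 8.04 and 10.5 TPM (lowest, median, highest) at 3W, 9.13, 14.6, 12.8 and 14.3 TPM after 1 week, 28.4, 7.50, 6.76, 10.6 and 11.6 TPM after 12 weeks, and 14.3 and 10.7 TPM at 6M. Among the WT 12W HFD libraries, only replicate 1 reached the KO 12W HFD range. Rdh10 rose in KO cells from 3W to 12 weeks of diet by 1.87 ± 0.46 on the log2 scale (limma adjusted p = 0.0109), a call lost without KO 12W HFD replicate 1 (adjusted p = 0.236) or 2 (0.0543). The same change in WT cells was 0.62 ± 0.32 (adjusted p = 0.226). The difference between these changes was 1.25 ± 0.56 (limma adjusted p = 1). KO against WT at 12 weeks gave 37.0 ± 12.6 TPM (SD, n = 2) and 13.0 ± 8.85 TPM (n = 5), a log2 difference of 1.58 ± 0.46 that did not pass adjustment (limma adjusted p = 0.849).

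The ALDH1A genes encode the retinaldehyde dehydrogenases, and their RNA differed in both level and course. Aldh1a2 (9:71215789-71296243), the main retinoic acid-making enzyme of the early mouse embryo, was the most variable of the 3. KO libraries had 3.75, 11.1, 3.41, 1.29 and 0.21 TPM at 3W, 6.42 and 55.2 TPM after 1 week of diet, and 150 and 239 TPM after 12 weeks. WT libraries had 21.8 and 3.21 TPM at P12 and 0.18, 1.35 and 15.1 TPM (lowest, median, highest) at 3W. They had 0, 4.84, 4.02 and 3.20 TPM after 1 week of diet, 83.5, 21.4, 16.2, 10.5 and 35.5 TPM after 12 weeks, and 51.5 and 7.94 TPM at 6M. Both KO 12W HFD libraries were above every other library, and the WT 12W HFD range touched only the upper end of WT 3W.

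Aldh1a2 was higher after 12 weeks of diet than at 3W in both genotypes, a comparison of groups that differ in age as well as diet. In KO cells the mean was 194 ± 62.9 TPM (SD, n = 2), against 3.94 ± 4.24 TPM at 3W (n = 5), or a change on the log2 scale of 5.68 ± 1.02 (limma adjusted p = 0.000454). In WT cells it was 33.4 ± 29.5 TPM (n = 5), against 3.97 ± 5.67 TPM at 3W (n = 7), or a change on the log2 scale of 3.12 ± 0.71 (limma adjusted p = 0.00244). Both calls held without any 1 library. The change from 1 to 12 weeks of diet in WT cells was 3.00 ± 0.81 (limma adjusted p = 0.0233). It lost its call without WT 12W HFD replicate 1 (adjusted p = 0.081) or 5 (0.05) or WT 1W HFD replicate 1 (0.122), and with no filter on low values (0.0563). At 6M, WT cells were 2.82 ± 0.97 above 3W on the log2 scale, short of the threshold (limma adjusted p = 0.0604). That value passed with median-ratio scaling (0.0393), quantile normalization (0.0458) or array weights (0.0489), and without WT 3W replicate 2 (0.0258) or 3 (0.0455). WT 12W HFD and WT 6M overlapped, with means of 33.4 and 29.7 TPM and a log2 difference of 0.30 ± 1.02 (limma adjusted p = 0.9495).

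KO against WT after 12 weeks of diet, Aldh1a2 had 150 and 239 TPM in KO cells and 10.5 to 83.5 TPM in WT cells, and the groups did not overlap, as for 9.94% of all genes (4.73% higher in KO). The means differed 5.82-fold and the log2 difference was 2.83 ± 1.02 (limma adjusted p = 1). After 1 week, KO cells had 6.42 and 55.2 TPM and WT cells 0 to 4.84 TPM, again with no overlap (11.4% of all genes; 5.97% higher in KO), and a log2 difference of 2.62 ± 1.05 (limma adjusted p = 1). At 3W the difference was 0.27 ± 0.71 (adjusted p = 1), and KO was above its WT partner in 3 of 6 pairings, 2 of which share KO 3W replicate 3. The change from 3W to 12 weeks of diet was larger in KO than in WT cells by 2.56 ± 1.24 (limma adjusted p = 1). With 2 KO libraries at each diet stage, none of these differences passed adjustment over all genes (0% to 0.0128% of all genes passed for the 3 tests of such a difference).

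Macrophage and mesothelial RNA was present in these libraries and is set beside Aldh1a2, since both cell types are known to be able to express it in mice. Of 15 macrophage markers, 13 rose in KO 12W HFD against KO 3W and 15 rose in WT 12W HFD against WT 3W. The list's mean level was 6.15 and 7.002 log2(TPM + 1) in KO 12W HFD and 6.40 to 7.75 in WT 12W HFD, with overlap. Adgre1, which encodes the macrophage antigen F4/80, had 33.8 and 58.6 TPM in KO 12W HFD and 48.8 to 159 TPM in WT 12W HFD. The level at 3W was 2.26 to 3.48 log2(TPM + 1) in KO cells and 1.60 to 2.75 in WT cells. The dendritic list lay at 1.318 and 1.863 log2(TPM + 1) in KO 12W HFD and 0.776 to 1.156 in KO 3W, and 1 of its 7 tested genes rose. In WT cells it lay at 1.785 to 2.422 in WT 12W HFD and 0.63 to 1.122 in WT 3W, and 4 of 7 rose. Itgax, which encodes CD11c of dendritic cells and some macrophages, had 6.46 and 11.3 TPM in KO 12W HFD and at most 0.39 TPM in KO 3W. Flt3, another dendritic marker, was listed at 0 in both KO 12W HFD libraries and lay between 0 and 0.75 TPM in WT 12W HFD.

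The mesothelial list of 14 genes lay at 1.77 and 1.85 log2(TPM + 1) in KO 12W HFD and 1.52 to 1.84 in WT 12W HFD. Upk3b, which defines mesothelium, was at 0.5 and 0.08 TPM in these KO libraries and 0 to 1.13 TPM in these WT libraries. After 1 week of diet the mesothelial list was at 4.08 and 2.51 log2(TPM + 1) in KO and 1.94 to 2.36 in WT libraries. The KO 1W HFD library with 31.3 TPM of Upk3b had 6.42 TPM of Aldh1a2, and the other, with 3.18 TPM of Upk3b, had 55.2 TPM. In KO 1W HFD against WT 1W HFD, 1 of 13 tested mesothelial markers rose. Macrophage markers were at 4.33 and 4.87 log2(TPM + 1) in KO 1W HFD and 3.55 to 4.07 in WT 1W HFD, so at that stage they were higher in KO without overlap, though 0 of 15 passed (limma). The part of macrophages, dendritic cells and mesothelium in the rise of Aldh1a2 with age and diet, and in the KO against WT values after 1 and 12 weeks, was not tested.

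**Figure D3:**
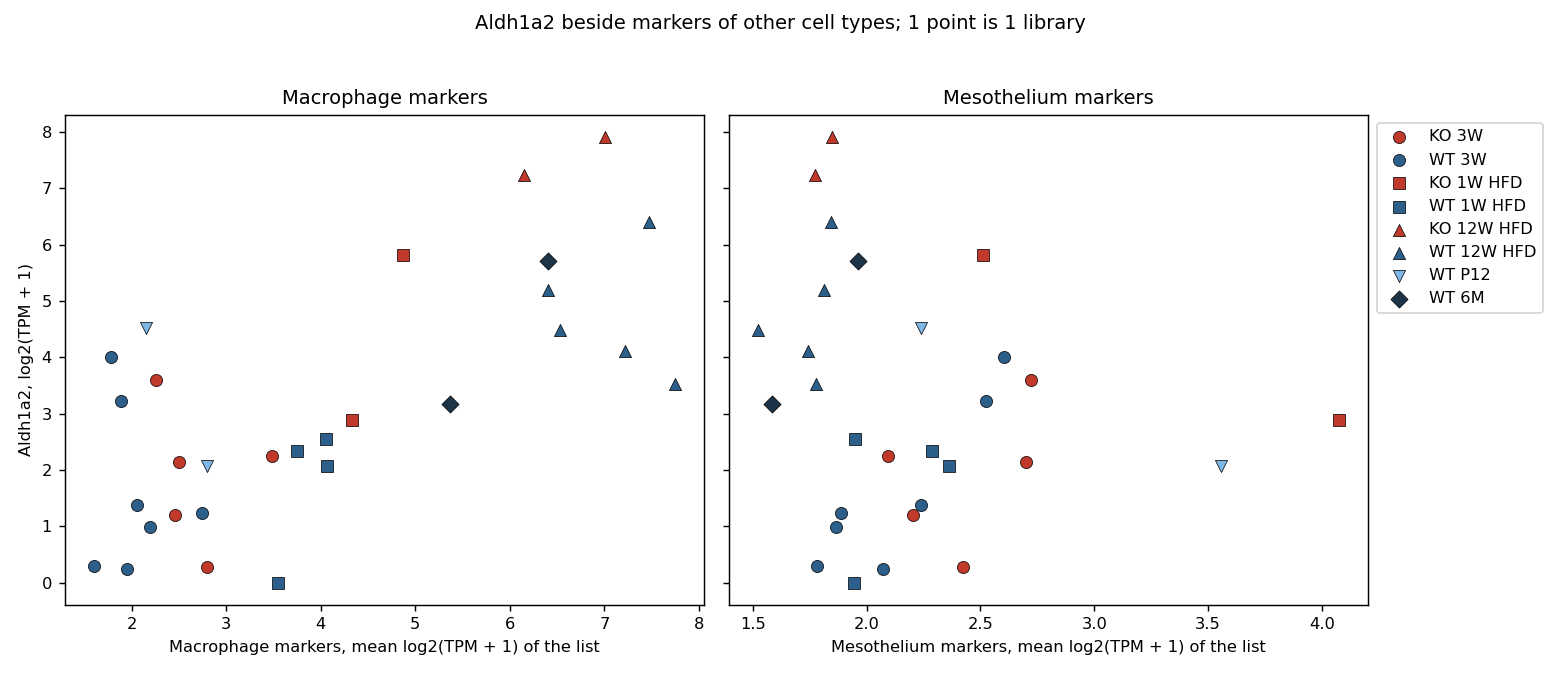
Aldh1a2 in log2(TPM + 1) against the mean log2(TPM + 1) of the macrophage list (left) and the mesothelial list (right); each point is 1 library, coloured by genotype and shaped by group. Both KO 12W HFD points lie above all WT 12W HFD points on the vertical axis. Their macrophage levels are 6.15 and 7.002 and those of WT 12W HFD 6.40 to 7.75; the part of macrophages in Aldh1a2 was not tested.

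Aldh1a1 (19:20492715-20643465), an abundant ALDH1A enzyme of mouse adipose tissue, kept a level above 100 TPM in every library. KO libraries had 224, 145, 320, 526.4 and 503 TPM at 3W, 372 and 340 TPM after 1 week and 164 and 226 TPM after 12 weeks of diet. WT libraries had 155 and 109 TPM at P12 and 234, 326 and 723 TPM (lowest, median, highest) at 3W. They had 528, 266, 287 and 393 TPM after 1 week, 153, 236, 245, 295 and 214 TPM after 12 weeks, and 144 and 290 TPM at 6M. All 7 WT 3W libraries were above both P12 libraries, with a log2 change of 1.46 ± 0.41 that missed the threshold (limma adjusted p = 0.0657; 0.0429 without WT 3W replicate 7). Groups lay apart in this direction for 2.83% of all genes in that comparison, and in either direction for 8%. No other comparison of Aldh1a1 passed, and KO and WT overlapped at all 3 stages (log2 differences of -0.23 ± 0.30, 0.00 ± 0.44 and -0.21 ± 0.43 from 3W to 12 weeks of diet).

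Aldh1a3 (7:66390890-66427517), the isoform known from eye and nasal development, rose in WT cells from 3W to 12 weeks of diet. WT libraries had 27.6 and 20.5 TPM at P12, 32.8, 59.1 and 97.7 TPM (lowest, median, highest) at 3W, 91.6, 89.6, 114 and 115 TPM after 1 week of diet, 68.3, 221, 149, 138 and 165 TPM after 12 weeks and 112 and 86.8 TPM at 6M. KO libraries had 62.0, 59.1, 79.7, 79.7 and 49.4 TPM at 3W, 106 and 162 TPM after 1 week and 167 and 75.0 TPM after 12 weeks of diet. The mean after 12 weeks in WT cells was 148 ± 54.8 TPM (SD, n = 5), against 65.1 ± 21.5 TPM at 3W (n = 7), or a change on the log2 scale of 1.15 ± 0.25 (limma adjusted p = 0.00177). It held without any 1 library. The changes from 3W to 1 week of diet (0.71 ± 0.27, limma adjusted p = 0.11) and to 6M (0.67 ± 0.35, adjusted p = 0.233) did not pass.

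Aldh1a3 did not overlap between WT P12 and WT 3W, as for 8% of all genes (2.83% higher at 3W). From P12 to 3W it rose by 1.34 ± 0.35 on the log2 scale in WT cells (limma adjusted p = 0.042). This call was lost without any 1 of 8 of the 9 libraries (WT 3W replicates 1 to 6 and both P12 replicates; adjusted p = 0.0507 to 0.243). It was also lost with no filter on low values (0.055), with array weights (0.303) and when WT 3W and WT P12 were fitted alone (0.161). In KO cells the changes from 3W were 1.00 ± 0.36 after 1 week and 0.78 ± 0.36 after 12 weeks of diet (limma adjusted p = 0.225 and 0.286). KO against WT differed by 0.07 ± 0.25 at 3W, 0.36 ± 0.38 after 1 week and -0.31 ± 0.36 after 12 weeks (adjusted p = 1 at each).

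The make-up of the family's RNA differed between stages. The summed TPM of the 3 genes lay between 133 and 780 over all libraries, with means of 510 ± 42.1 TPM in KO 12W HFD (SD, n = 2) and 410 ± 64.8 TPM in WT 12W HFD (n = 5). At 3W, Aldh1a1 gave 80.4% ± 9.09 of the sum in KO and 83.8% ± 7.10 in WT cells, and Aldh1a2 gave 1.504% ± 2.09 and 0.783% ± 1.00. After 12 weeks of diet, Aldh1a2 gave 31.2% and 44.3% in KO 12W HFD, against 2.37% to 27.4% in WT 12W HFD. Aldh1a1 then gave 38.0% ± 5.48 in KO and 55.5% ± 7.40 in WT cells. The shares are a description and were not tested.

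**Figure D4:**
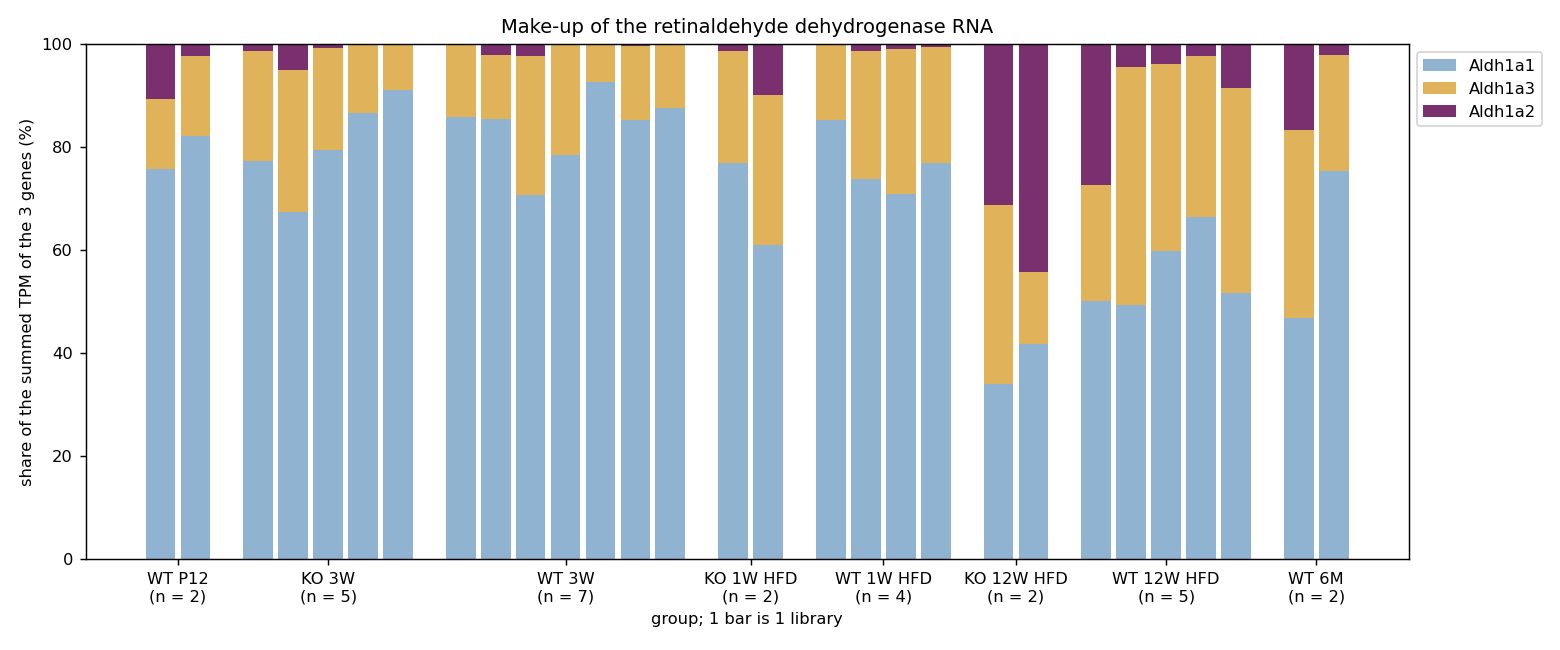
Share of Aldh1a1, Aldh1a3 and Aldh1a2 in the summed TPM of the 3 genes (vertical axis, %), with 1 bar a library, by group. Aldh1a2 takes 31.2% and 44.3% in KO 12W HFD, at most 27.4% in WT 12W HFD and at most 5.13% at 3W.

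Crabp1 (9:54764748-54773110), which binds retinoic acid in the cytoplasm, was detected mainly in young mice. KO libraries had 0, 3.71, 0.31, 0.87 and 1.12 TPM at 3W, were listed at 0 after 1 week of diet, and had 0 and 0.11 TPM after 12 weeks. WT libraries had 7.35 and 37.0 TPM at P12 and 0, 1.32 and 5.43 TPM (lowest, median, highest) at 3W. It was listed at 0 in all 9 WT libraries of both diet groups, and 6M had 0.1 and 0 TPM. Both P12 libraries were above every other library, and WT 3W lay below P12 without overlap for 5.17% of all genes. The level at 3W was 1.59 ± 1.82 TPM in WT cells (SD, n = 7), against 22.2 ± 21.0 TPM at P12 (n = 2), or a change on the log2 scale of -3.03 ± 0.53 (limma adjusted p = 0.0015).

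The call for this fall of Crabp1 from P12 to 3W was lost without WT P12 replicate 2. The log2 change was then -1.94, with 1 P12 library left (7.35 TPM). Other settings that ended the call were a pseudocount of 0.1 (0.0613) and fitting WT 3W and WT P12 alone (0.0954). WT 12W HFD against WT 3W gave -1.12 ± 0.39 (limma adjusted p = 0.0502), which passed without WT 3W replicate 5 (0.0266) or 6 (0.0204), with a pseudocount of 0.1 (0.00755), with columns rescaled to a common sum (0.0468) or with array weights (0.0298). Endothelial markers were also higher at P12. Of 10 tested, 6 fell in WT 3W against WT P12, and the list ranged over 1.60 to 2.46 and 4.43 to 5.52 log2(TPM + 1). Pecam1, which defines endothelium, had 0.05 to 2.87 TPM in WT 3W and 105 and 37.1 TPM in WT P12. Of the P12 libraries, the one with 37.0 TPM of Crabp1 had 14.7 TPM of Upk3b and the other had 0.03 TPM. Erythroid markers went the other way: 4 of 6 tested rose in WT 3W against WT P12 (median log2 change 4.87), and the list ranged over 4.73 to 6.84 log2(TPM + 1) in WT 3W. It was at 0.829 in the P12 library with 37.0 TPM of Crabp1 and at 4.18 in the other. Their part in the Crabp1 and Aldh1a3 results was not tested.

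Crabp2 (3:87948666-87953376), known to deliver retinoic acid to its receptors, stayed below 5 TPM in all libraries. KO libraries had 0.49, 3.82, 0.51, 1.56 and 1.29 TPM at 3W, 0.16 and 1.25 TPM after 1 week and 0.22 and 1.84 TPM after 12 weeks of diet. WT libraries had 0.48 and 4.58 TPM at P12, 0.82, 2.39 and 3.68 TPM (lowest, median, highest) at 3W, 0.17, 0.08, 0.55 and 0.11 TPM after 1 week, 0, 0.88, 0.15, 1.19 and 1.02 TPM after 12 weeks and 1.41 and 0 TPM at 6M. All WT 1W HFD libraries were below all WT 3W libraries, as for 2.31% of all genes. The log2 change in WT cells was -1.43 ± 0.39 after 1 week (limma adjusted p = 0.0209) and -1.06 ± 0.36 after 12 weeks (0.0484), both from 3W.

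The call of Crabp2 after 1 week was lost without WT 1W HFD replicate 1 (adjusted p = 0.0508), 2 (0.0566) or 4 (0.0662). After 12 weeks it was lost without any 1 of 10 of the 12 libraries (WT 12W HFD replicates 1, 2, 3 and 5 and WT 3W replicates 1 to 6; adjusted p = 0.0531 to 0.154). A pseudocount of 0.1 (0.0683), no filter (0.0655) and median-ratio scaling (0.0549) also ended it. KO against WT at 3W gave 1.53 ± 1.36 TPM (SD, n = 5) and 2.39 ± 0.91 TPM (n = 7), a log2 difference of -0.51 ± 0.36 (limma adjusted p = 1).

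Rarb, the retinoic acid receptor with the direct repeat shown above (14:16430839-16819156), changed past the threshold in no comparison. KO libraries had 5.91, 14.8, 6.52, 5.75 and 1.18 TPM at 3W, 7.70 and 2.90 TPM after 1 week and 0.48 and 3.05 TPM after 12 weeks of diet. WT libraries had 7.80 and 4.17 TPM at P12, 1.34, 2.74 and 7.07 TPM (lowest, median, highest) at 3W, 5.41, 4.83, 1.85 and 4.99 TPM after 1 week, 2.27, 1.10, 1.81, 1.49 and 1.5 TPM after 12 weeks and 5.90 and 5.22 TPM at 6M. The lowest group means were 1.76 ± 1.82 TPM in KO 12W HFD (SD, n = 2) and 1.63 ± 0.44 TPM in WT 12W HFD (n = 5). All 5 WT 12W HFD libraries were below both WT 6M libraries, with a log2 difference of -1.33 ± 0.59 (limma adjusted p = 0.304). Groups lay apart in this direction for 4.24% of all genes, and in either direction for 20.7%. At 3W KO was above its WT partner in 4 of 6 pairings, 2 of which share KO 3W replicate 3, and the log2 difference was 0.58 ± 0.41 (adjusted p = 1).

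Ordered by group mean, most neighbouring groups overlapped for every gene. For Rbp4 the order ran WT 3W, KO 3W, WT P12, WT 1W HFD, KO 1W HFD, WT 6M, WT 12W HFD and KO 12W HFD, and each neighbouring pair overlapped. For Aldh1a2 it ran KO 12W HFD, WT 12W HFD, KO 1W HFD, WT 6M, WT P12, WT 3W, KO 3W and WT 1W HFD, and the only gap was between the first 2. Rdh10 had a gap between KO 12W HFD and KO 1W HFD, where 37.6% of all genes did not overlap (15% higher in KO 12W HFD). Crabp1 had a gap between WT P12 and WT 3W (8% of all genes), and Aldh1a1 between KO 12W HFD and WT P12. Aldh1a3 had gaps between WT 6M and KO 3W and between WT 3W and WT P12 (8% of all genes). The groups at the gap of Aldh1a2 did not overlap for 9.94% of all genes. For the gaps of Aldh1a1 and of Aldh1a3 between WT 6M and KO 3W, the share over all genes was not computed.

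Some gene patterns over the 29 libraries resembled these genes, as a description that rests largely on the differences between groups. For Rbp4 the closest were Itm2a (Pearson r of log2 values = 0.942), Lsamp (0.921) and Nrk (0.919), and within groups, as deviations from the group means, r was 0.595, 0.42 and 0.451. For Aldh1a2 they were Ncf1, a subunit of the phagocyte NADPH oxidase (0.837, and 0.471 within groups), Serpinb2 (0.822 and 0.528) and Tmem176a (0.822 and 0.769). Aldh1a3 was closest to Irak3 (0.882), Nox4 (0.84) and Gca (0.81), and Rdh10 to Chl1 (0.838), Star (0.818) and Il1r1 (0.789). Crabp1 was closest to Unc5c (0.936), Krt83 (0.843) and Flrt1 (0.83). The leading partners of the other genes had r of 0.664 (Polr1d for Rarb) to 0.776 (Fermt1 for Stra6). Between members, r was -0.68 for Rbp4 and Aldh1a2 but -0.09 within groups, and 0.641 for Rdh10 and Aldh1a2 with 0.381 within groups.

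In the ATAC-seq peak lists, 6 of the 9 genes had annotated starts to look at, 11 in all. A start had a peak when a peak of the library overlapped the 1000 bases either side of it. Peaks lay at the starts of Rbp4, Aldh1a2 and Rarb in all 9 libraries, KO and WT alike, and these peaks cover the printed promoters. Aldh1a1 had a peak in 9 libraries at one start and in 7 at the other. Of all 32851 annotated starts 47.4% had a peak in every library, and 5 of the 11 starts of these genes did. Stra6 had 4 starts, with a peak in 0, 0, 1 and 2 libraries. Crabp1 had a peak in 8 libraries and none in WT 12W HFD replicate 2.

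The Rbp4 gene held 1 further open region, at 19:38120026-38121262 inside the gene. Peaks formed it in KO 3W replicate 1 and in all 3 WT 3W libraries, and in none of the 4 libraries of the diet groups. It was chosen after its pattern was seen, and the share of all regions with that pattern was not computed. Authors' fold enrichment of the Rbp4 start peak was 40.6 and 25.5 in KO 3W, 45.7, 24.9 and 27.6 in WT 3W, 36.8 and 21.6 in WT 1W HFD, and 16.7 and 11.7 in WT 12W HFD. For Aldh1a2 it was 28.1 and 13.5 in KO 3W, 64.1, 10.7 and 14.6 in WT 3W, 17.0 and 20.7 in WT 1W HFD, and 23.3 and 22.02 in WT 12W HFD. These values describe each list and are not compared between lists, which held 55990 to 93314 peaks over 75.6 to 172.6 Mb.

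Merged over the libraries, 76 open regions lay within 1000 bases of the 9 gene bodies, and 18 of them were in every library (29% of all 123191 regions were). Rarb held 30 of them and Stra6 held 12. Regions in both KO 3W and no WT 3W libraries numbered 4 (2 in Stra6 and 2 in Rarb), against 2.98% of all regions. The 2 such Rarb regions were also in every WT 1W HFD and WT 12W HFD library. Of the 2 such Stra6 regions, 1 was also in WT 1W HFD replicate 2. None was in every WT 3W and no KO 3W library, against 0.0503% of all regions. Aldh1a1 held the only region in both WT 12W HFD and no 3W library, at 19:20508196-20509362 (4.93% of all regions). With 2 KO and 3 WT libraries the smallest p a permutation can give is 0.1, so no test was made. Peak names begin with another letter in 3 of the libraries (1 of KO 3W and 2 of WT 3W), and no source used here says what it means.

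**Figure D5:**
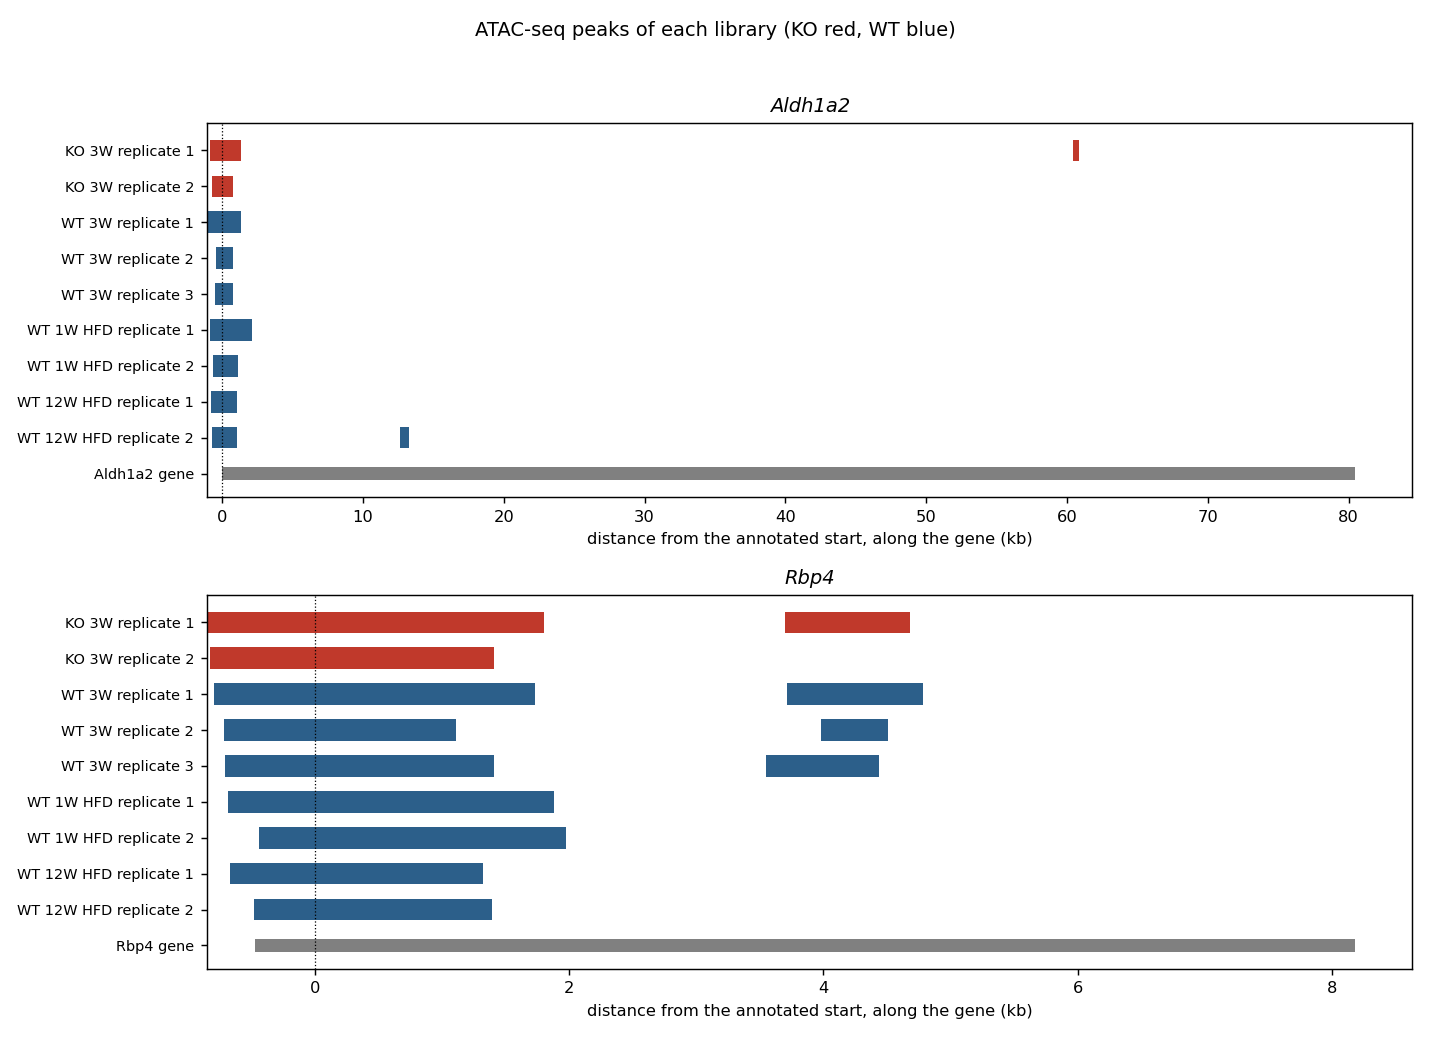
Peaks of each ATAC-seq library (rows; KO red, WT blue) across Aldh1a2 and Rbp4, as distance in kb from the annotated start (for Rbp4 the start inside the gene), with the gene in grey. A peak lies at both starts in all 9 libraries, and the further Rbp4 peak is in 4 of the 5 libraries at 3W and in 0 of 4 on the diet. That region was chosen after its pattern was seen, and the share of all regions with the pattern was not computed.

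Of 68 other genes of retinoid handling and response, 54 were tested. Between KO and WT 0 passed at 3W, 1W HFD or 12W HFD, and 0 passed for WT 3W against WT P12 (limma adjusted p; shares of all genes as above). In WT 12W HFD against WT 3W, 3 rose and 5 fell, where 14.2% of all genes passed (7.94% higher and 6.23% lower). The median log2 change was -0.242 over the 54 genes and -0.0355 over all genes. Rbp7, a retinol-binding protein of endothelium and adipose tissue, had 60.4 ± 70.0 TPM in WT 12W HFD (SD, n = 5), against 6.09 ± 7.64 TPM in WT 3W (n = 7; log2 change 3.18 ± 0.73, adjusted p = 0.00272). Adh1, an alcohol dehydrogenase that can oxidise retinol, had 945 ± 157 TPM, against 2538 ± 630 TPM (-1.41 ± 0.26, adjusted p = 0.000258). Nr2f2, an orphan nuclear receptor known to respond to retinoic acid, had a change of -1.69 ± 0.37 (adjusted p = 0.00188), and Hoxa5, a positional transcription factor, of -1.26 ± 0.23 (adjusted p = 0.000165). These 4 calls held without any 1 library. The endothelial list ranged over 1.51 to 4.22 log2(TPM + 1) in WT 12W HFD and 1.60 to 2.46 in WT 3W, and 2 of its 10 genes rose. Its part in the Rbp7 result was not tested.

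In WT 6M against WT 3W, 2 of the 54 rose and 7 fell, where 10.8% of all genes passed (4% higher and 6.85% lower). The median log2 change over the 54 was -0.504, against -0.241 over all genes. Median-ratio scaling ended 4 of the 7 lower calls (Rdh13, Ncoa3, Hoxa5 and Gata6; limma adjusted p = 0.0551 to 0.173), and quantile normalization ended these and Scarb1. Nr2f2 (-2.76 ± 0.51, limma adjusted p = 0.000645) fell in every leave-one-out fit. Ces1d, a carboxylesterase that can hydrolyse retinyl esters (2.38 ± 0.57, adjusted p = 0.00664), Bco1, which cleaves beta-carotene to retinaldehyde (1.96 ± 0.48, adjusted p = 0.00831), and Scarb1, a receptor that takes up carotenoids (-1.87 ± 0.54, adjusted p = 0.0233), lost their calls without WT 6M replicate 2 (adjusted p = 0.341, 0.789 and 0.39). Scarb1 also lost it with quantile normalization (0.0512), array weights (0.0539) and a fit of both groups alone (0.0586).

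In WT 1W HFD against WT 3W, 2 rose and 4 fell, where 8.03% of all genes passed (4.78% higher and 3.25% lower). Rbp7 (3.23 ± 0.78, limma adjusted p = 0.00979) and Nr2f2 (-1.60 ± 0.40, adjusted p = 0.0121) lost their calls without WT 1W HFD replicate 3 (adjusted p = 0.0625 and 0.0623). Of 10 endothelial markers 6 rose in the same comparison. In WT 12W HFD against WT 1W HFD, 3 rose and 1 fell, where 5.93% of all genes passed (3.54% higher and 2.39% lower). Ces1d, the gene that fell (-1.78 ± 0.47, limma adjusted p = 0.0207), lost its call in 4 of 9 leave-one-out fits (0.0674 to 0.0716). Dhrs3, which reduces retinaldehyde back to retinol (1.26 ± 0.31, adjusted p = 0.012), lost its call without WT 1W HFD replicate 3 (0.0615). In WT 12W HFD against WT 6M, 0 rose and 1 fell, where 0.881% of all genes passed (0.702% higher and 0.179% lower). It was again Ces1d (-2.58 ± 0.59, limma adjusted p = 0.0284), a call lost without WT 12W HFD replicate 5 (0.0627) or WT 6M replicate 2. In KO 12W HFD against KO 3W, 2 rose and 0 fell, where 5.15% of all genes passed (3.19% higher and 1.96% lower). Cyp1b1, a cytochrome P450 that can oxidise retinoids, had 409 ± 145 TPM in KO 12W HFD, against 158 ± 49.4 TPM in KO 3W (1.38 ± 0.34, adjusted p = 0.0117; 0.396 without KO 12W HFD replicate 2). The degrading enzymes Cyp26a1, Cyp26b1 and Cyp26c1 had group means of at most 0.5 TPM. Ttr, which encodes the partner of RBP4 in plasma, was listed at 0 in every library. The receptor genes Rara, Rarg, Rxra and Rxrb passed in no comparison, with group means between 3.05 TPM (Rxra in WT 6M) and 13.5 TPM (Rarg in KO 3W).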

How the data were processed

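The authors deposited TPM per gene, 1 table of WT and 1 of KO libraries with the same gene list. The authors also deposited 1 ATAC-seq peak list per library. Its columns give each peak's score, its fold over background, and −log10 values of p and q. Per the submitters' processing notes, Trim Galore 0.6, FastQC, STAR 2.5.3a, RSEM, Bowtie2 2.3, MACS2 and the build mm10 were used, without the step of each; no source used here says whether counting used strand. TPM holds no read depth, so no counting error was computed; precision comes from replicates, and peak depth is unknown. Groups come from sample titles: in 22 of 38 samples the genotype entry differs from the title, and in 16 it matches. The labels do not say that replicate libraries came from different animals; p-values measure only the spread between libraries, which may be technical.

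The filter kept genes reaching 1 TPM in 2 libraries or more. These were fitted as log2(TPM + 1) with limma 3.58.1 (R 4.3.3; checked on simulated data) over 29 libraries and 8 group means, leaving 21 residual degrees of freedom, without covariates and with a trended eBayes step, in 12 comparisons and 3 differences of KO and WT changes. Tests were two-sided, adjusted by Benjamini-Hochberg, with a threshold of 0.05. Log2 changes understate low genes. The error after ± is the SD of TPM or shares and the SE of log2 changes. Alternatives were another pseudocount, other filters and scalings, array weights, fits of the compared groups alone, each library left out and a replicate block; for the peaks, overlap, a −log10 q of at least 5 and the window. The other retinoid genes were put through the same alternatives as an addition made after seeing the data.

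All 9 genes are reported in full; of other retinoid genes at most the 4 with the largest change among those past the threshold in a comparison, and for likeness the 3 genes with the highest r. The members and the gene lists were chosen with earlier results of these data known. Titles at 3W name pairs without saying what they share: of 6 same-pair correlations of deviations from group means 5 exceeded 0.1 and 1 did not (-0.131 to 0.482). Pairing was accepted only if all exceeded it, so the main fit has no block, and the fit with pairs as a block is an alternative. KO 3W replicate 3 is paired with WT 3W replicates 3 and 5, so the 6 pairings are not independent. Promoters of Rdh10, Aldh1a3 and Crabp2 were not used here. Sums and figures were made with Python 3.11.15, pandas 2.3.3 and matplotlib 3.10.9.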

Additional observations from a re-analysis of the deposited data

Results flagged for a closer look

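In 34 sets of 4 to 7 libraries (1 gene in 1 group), 7 held a library far from the others by Dixon's criterion, which flags about 1 in 20 by chance. Stra6 accounts for 4 of them because it was listed at 0 in most libraries. It had 1.25 TPM in KO 3W replicate 3 beside 0 in the others, and 1.71 TPM in WT 3W replicate 3 beside 0 to 0.48 TPM. It had 0.76 TPM in WT 1W HFD replicate 3 and 0.29 TPM in WT 12W HFD replicate 3, beside 0 in the others of both groups. Rdh10 had 28.37 TPM in WT 12W HFD replicate 1, where the other libraries lay between 6.76 and 11.57 TPM; that library also had the highest Aldh1a2 of its group, 83.5 TPM. Crabp1 had 5.43 TPM in WT 3W replicate 1 beside 0 to 1.79 TPM. Rarb had 1.85 TPM in WT 1W HFD replicate 3, below the 4.83 to 5.41 TPM of the others.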

How the results depend on the processing

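No called change reversed. The calls for KO against WT stayed at 0 of the 9 genes in all alternatives, as did WT 12W HFD against WT 6M, KO 12W HFD against KO 1W HFD and the 3 differences of changes. For WT 3W against WT P12, the 2 calls became 1 with a pseudocount of 0.1, no filter or array weights, 0 in a fit of both groups alone and 0 with the replicate block; leaving out 1 library gave 0 to 3. For WT 6M against WT 3W, the 1 call became 2 with median-ratio scaling, quantile normalization, array weights or the block; leaving out 1 library gave 1 to 2. For WT 1W HFD against WT 3W, 2 became 1 with a filter of 5 TPM and 1 with the block; leaving out 1 library gave 1 to 2. For WT 12W HFD against WT 1W HFD, 2 became 1 with no filter and 1 with the block; leaving out 1 library gave 0 to 2. For KO 1W HFD against KO 3W, 1 became 0 with the block; leaving out 1 library gave 0 to 1. WT 12W HFD against WT 3W (4 calls) gave 3 to 4 and KO 12W HFD against KO 3W (3 calls) gave 2 to 3 without 1 library. A stricter filter tests fewer genes and a left-out library leaves fewer samples; in other cases the cause was not tested. The shared replicate numbers do not pair the samples. Used as a block, they gave adjusted p = 0.0667 for Aldh1a3 and 0.0811 for Crabp1 (WT 3W against WT P12), 0.0631 for Rbp4 and 0.0539 for Crabp2 (WT 1W HFD against WT 3W), 0.0746 for Crabp2 (WT 12W HFD against WT 3W), 0.0741 for Aldh1a2 (WT 12W HFD against WT 1W HFD) and 0.174 for Rbp4 (KO 1W HFD against KO 3W). Crabp1 gained calls under it at 6M (0.0327), 1W HFD (0.0339) and 12W HFD (0.0319), each WT against WT 3W. With the titles' pairs as a block at 3W, KO against WT had 0 calls among the 9 genes and 0 among all genes. The block was not fitted for the differences of changes. Where a lone library remained in a group, its spread was taken from the other groups. Peaks at 63 of 99 combinations of start and library became 61 when at least as much of the peak had to lie inside the window as outside it, 61 with the stricter q and 62 with the narrower window. The unknown depth limits what can be said of Stra6, Crabp1 and Crabp2, which lie near 0 TPM.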
